A study of Rattus norvegicus with 8 samples.

Results

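The nuclear genes of oxidative phosphorylation were followed in rat thymocytes that had been cultured with or without dexamethasone. Members were chosen by name: every probe whose gene name began with Ndufa, Ndufb, Ndufc, Ndufs, Ndufv, Uqcr or Atp5, or with Cox and a number from 4 to 8, or was Sdha, Sdhb, Sdhc, Sdhd, Cyc1 or Cycs. This gave 85 of the 41012 probes on the array, and they belong to 73 gene names. Of these, 32 fall to complex I, 4 to complex II, 6 to complex III, 1 to cytochrome c, 16 to complex IV and 14 to complex V. All 73 names were found in a current rat gene table, and 72 were well above background on all 8 arrays, as flagged in the scanner output. The exception was Cox6c1, listed today as the pseudogene Cox6c-ps1, which passed on 2 Control arrays and 1 Dex array. Besides this pseudogene and the electron carrier Cycs, the name rule takes in 4 genes that are not subunits of the enzymes. They are the assembly factor Ndufaf1, Cox4nb (now Emc8), Atp5s (now Dmac2l) and Cox7a2l, which joins complexes III and IV into supercomplexes.

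Thymocytes are the immature T cells of the thymus, and glucocorticoids drive them into apoptosis. The cells came from adrenalectomized male Sprague-Dawley rats, whose own glucocorticoid production had been removed by surgery, and the thymi of 3 animals were pooled for each preparation. Cultures were kept for 6 h, the Control (4 arrays) with no hormone added and the Dex group (4 arrays) with dexamethasone, a synthetic glucocorticoid, at 100 nM. Both groups therefore share the adrenalectomy, the isolation and the time in culture, and the Control is a cultured and not a freshly isolated thymocyte. The study's methods give 3 biological replicates per group while 4 arrays per group were deposited, so the p-values measure the spread between arrays, part of which may be technical.

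Oxidative phosphorylation passes electrons from NADH through complex I, or from succinate through complex II, to coenzyme Q, complex III, cytochrome c and complex IV, where oxygen is reduced. The protons pumped on the way drive ATP synthesis by complex V. Cytochrome c has another role in apoptosis, in which it leaves the mitochondrion and activates caspases, so its gene links the respiratory chain to the death of these cells.

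The number of probes well above background was lowest on Dex 2 (24908), Dex 1 (26471) and Control 1 (28665), and between 33148 and 34472 on the other 5 arrays. No spot was saturated. Control 1 and Dex 3 shared a slide and scan session 1, Control 2, 3 and 4 a further slide, and Dex 1, 2 and 4 the last, both read in scan session 2. Only Control 1 and Dex 3 thus compare the groups within a slide. For the other arrays slide and treatment cannot be told apart, and the comparison of all arrays carries this limit too. Levels are log2 intensities after quantile normalization, and levels of different probes are not compared. All 11 markers of double positive thymocytes tested, among them Cd4, Cd8a, Rag1 and Dntt, were well above background on every array. Of 10 macrophage markers 9 were too, and 2 of 5 B cell markers. In RNA from whole cultures, fewer cells of a type and less of an RNA per cell cannot be told apart.

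In limma, 0 of the 73 genes passed the adjusted threshold of 0.05, where 0.778% of all probes did (319 probes). Of all probes 0.563% passed it higher in Dex and 0.215% lower. The lowest adjusted p was 0.227, for Cycs. At an unadjusted p under 0.05, 5 genes were lower in Dex and 0 higher: Cycs, Cox7a2, Atp5i, Ndufb3 and Ndufb6. Of all probes 10.6% reached that level, 4.92% lower and 5.63% higher. The signal to noise statistic that the study's methods name was used here with p from all 70 assignments of the 8 arrays, pooled over the probes. It was thus not run with the permutations and replicates of those methods. At a nominal p of 0.01 and a fold change of 1.2 it called those 5 genes and Ndufc2 lower and 0 higher. Of all probes it called 6.79%, 3.20% lower and 3.59% higher.

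The differences were small and lay below 0 for 53 genes and above it for 20. Their median was -0.10 on the log2 scale, against 0.00033 over all probes, and they ran from -0.71 for Atp5s to 0.48 for Cox6b. Without Control 1 there were 38 below and 35 above with a median of -0.018, with slide as a random block 39 and 34 with -0.016, and in scan session 2 alone 35 and 38 with 0.040, so the tilt below 0 depends on the arrays and the fit. Without Control 2, Dex 3 or Dex 4 the median was -0.056, -0.034 and -0.033, and without Control 3 or Dex 2 it was -0.16 and -0.17. The 95% interval of the difference lay within a 2-fold change either way for 64 of the 73 genes and within a 1.5-fold change for 40. These limits hold for the comparison of all 8 arrays, and between Control 1 and Dex 3 alone 3 of the 64 genes, Ndufa2 and Cox4nb among them, differed by more than 2-fold. A p above the threshold does not show that the levels were equal. The 9 genes whose interval reached past 2-fold were Ndufa7, Ndufaf1, Ndufs4, Cox4i2, Cox6a2, Cox6b2, Cox6c1, Cox8h and Atp5s, which gives for each a spread between arrays too wide for such a limit.

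**Figure D1:**
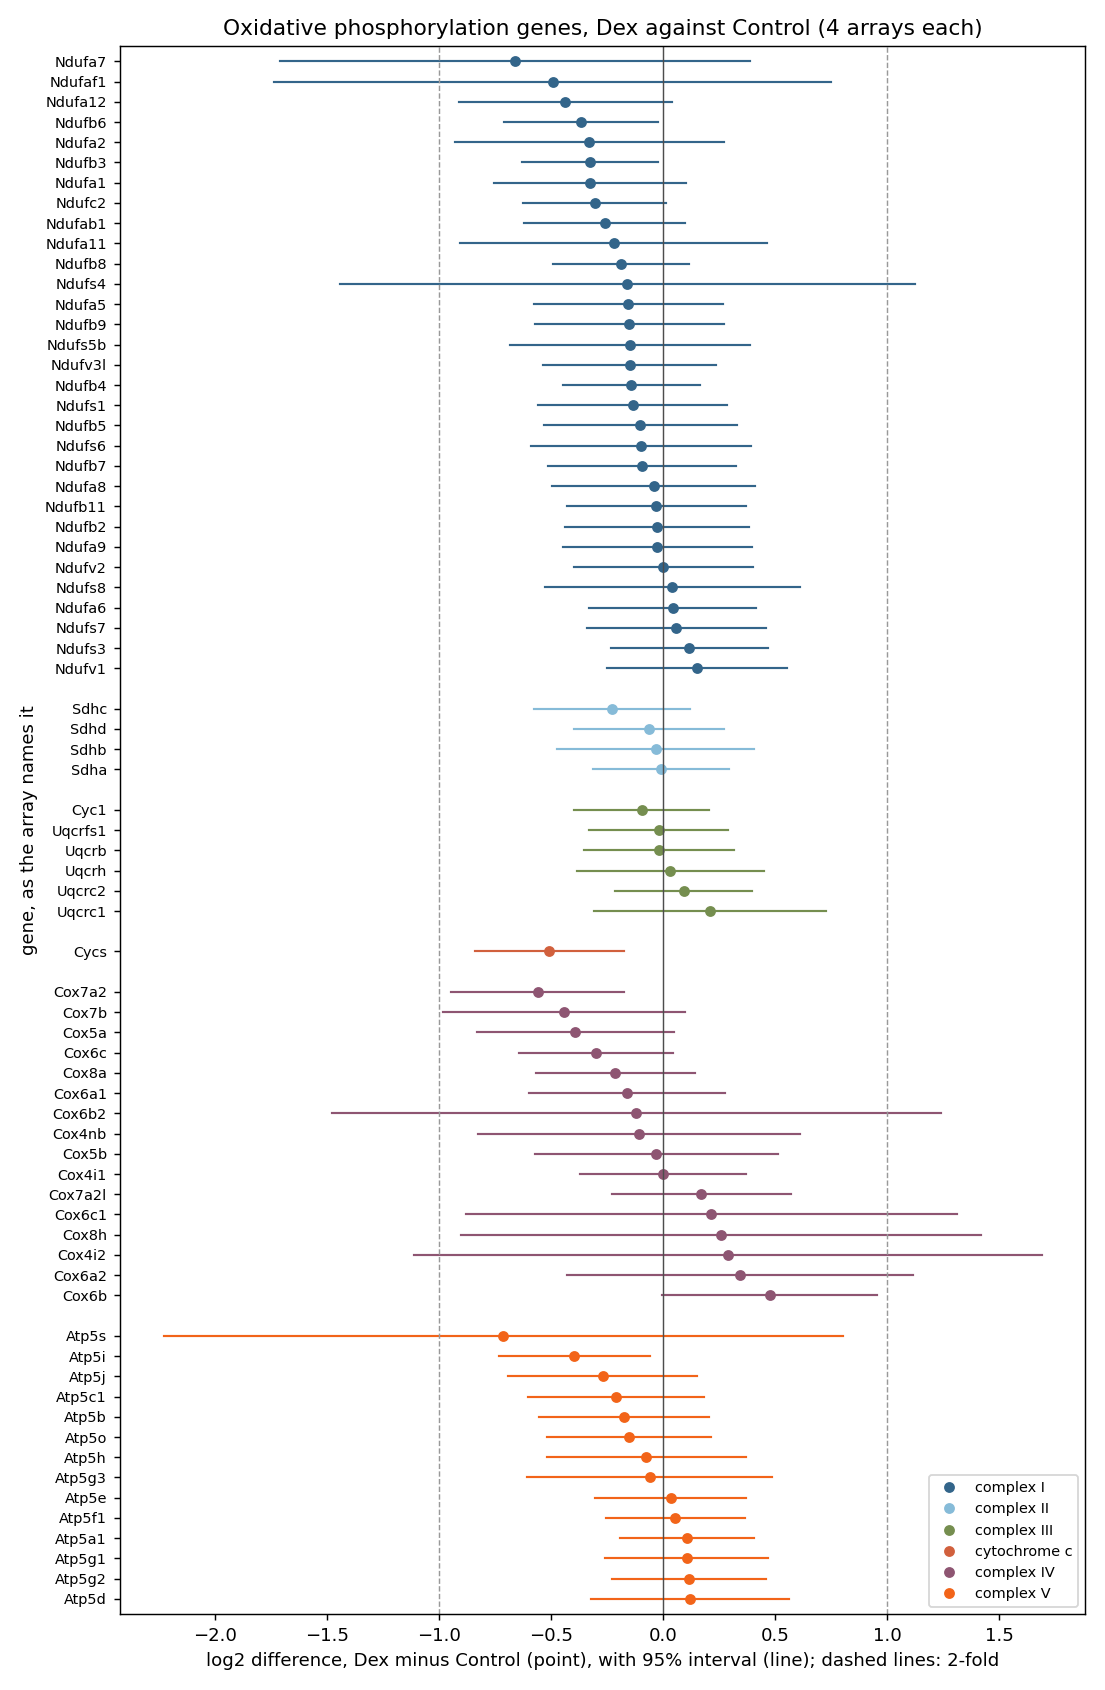
Difference between Dex and Control on the log2 scale for 72 of the 73 genes (points, limma, 4 arrays per group) with its 95% interval (lines), grouped by complex, with dashed lines at a 2-fold change. Most points lie below 0, and 5 intervals leave out 0, all on the lower side.

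In 9 genes every Dex array lay below every Control array, and in 0 genes every Dex array lay above. Over all probes 4.51% were below in this way and 4.60% above. The 9 genes were Ndufab1, Ndufb3, Ndufb6, Ndufb8 and Ndufc2 of complex I, Cycs, Cox6c and Cox7a2 of complex IV, and Atp5i of complex V. Apart from Cycs, which carries a haem, they are small accessory subunits. Their differences ran from -0.19 for Ndufb8 to -0.56 for Cox7a2. Ndufab1, Ndufb3, Ndufb8, Ndufc2 and Cox6c are named because of these values.

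**Figure D2:**
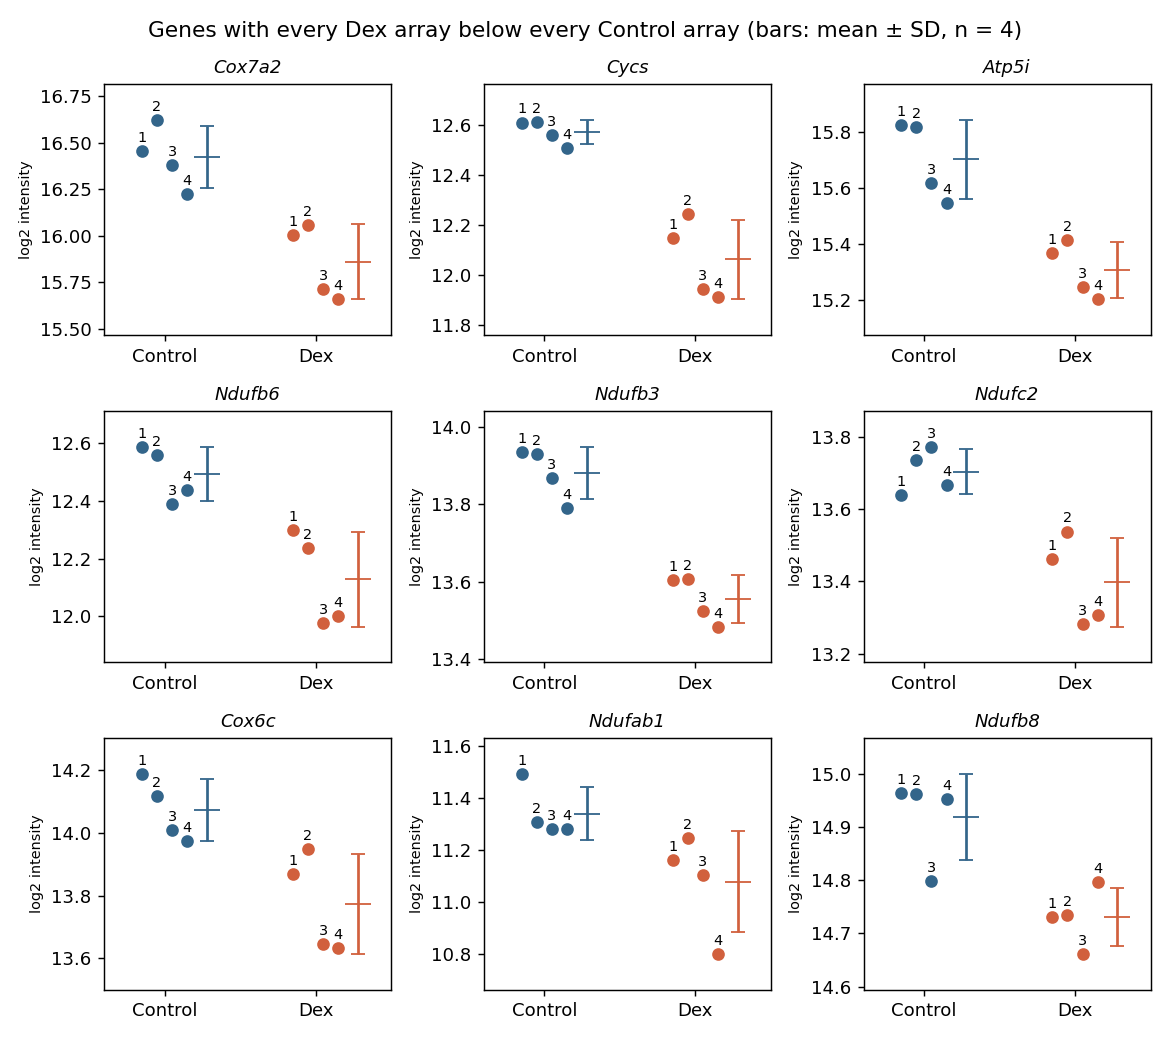
Log2 intensity on each array (numbered points) for the 9 genes in which all Dex arrays lay below all Control arrays, with the mean and SD of 4 arrays beside them. The gap between the groups is widest against the spread in Ndufb3 and Cycs, and in 8 of the 9 genes Dex 3 and Dex 4 are the lowest arrays.

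Complex I, the NADH dehydrogenase, had the lowest median of the complexes with more than 1 gene, at -0.15, with 27 of 32 genes below 0. That order did not hold within either scan session. The genes of its catalytic core sat on both sides of 0. Ndufv1, which carries the NADH site, differed by 0.15, and Ndufs3 by 0.12, Ndufs7 by 0.059 and Ndufs1 by -0.14. Ndufb3, an accessory subunit of the membrane arm, read 13.94, 13.93, 13.87 and 13.79 on Control 1 to 4 and 13.61, 13.61, 13.52 and 13.48 on Dex 1 to 4. Its groups did not overlap, and its difference was -0.33 (95% interval -0.63 to -0.023, adjusted p = 0.428).

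Ndufb6, of the same arm, read 12.59, 12.56, 12.39 and 12.44 in Control and 12.30, 12.24, 11.98 and 12.00 in Dex. Every Dex array lay below every Control array, and the difference was -0.37 (95% interval -0.71 to -0.021, adjusted p = 0.436). Ndufab1, the acyl carrier protein of the mitochondrion, read 11.49, 11.31, 11.28 and 11.28 in Control and 11.16, 11.25, 11.10 and 10.80 in Dex, a difference of -0.26 (adjusted p = 0.638). Dex 4 was the lowest array and Control 1 the highest. Both genes were read by the 60-base probes shown here 5′ to 3′, the first at chr5:57679359-57686057 on the minus strand, where it spans 6699 bases of the genome, and the second at chr1:181052741-181052800 on the minus strand, both in build rn3.
Ndufb6 probe: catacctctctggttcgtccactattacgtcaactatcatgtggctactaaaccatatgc
Ndufab1 probe: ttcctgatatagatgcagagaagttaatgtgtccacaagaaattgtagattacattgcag

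Ndufc2 read between 13.64 and 13.77 in Control and between 13.28 and 13.54 in Dex, a difference of -0.31 (adjusted p = 0.499). Ndufb8 read between 14.80 and 14.96 in Control and between 14.66 and 14.80 in Dex, where Dex 4 and Control 3 lay next to each other. Its difference was -0.19 (adjusted p = 0.7). Ndufa12, an accessory subunit next to the NADH arm, read 13.46, 13.38, 12.96 and 13.06 in Control and 12.99, 13.06, 12.55 and 12.50 in Dex. The groups overlapped, each Dex array lay below the Control array of the same number, and its difference of -0.44 had a 95% interval of -0.91 to 0.038 (adjusted p = 0.52).

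The largest differences of complex I came from 2 probes that split the Dex arrays. Ndufa7 read 7.78, 7.63, 7.67 and 7.45 in Control and 7.73, 7.96, 6.22 and 5.99 in Dex. Ndufaf1, which helps to assemble complex I, read 6.61, 6.31, 5.73 and 6.19 in Control and 6.66, 6.79, 4.79 and 4.62 in Dex. In both, Dex 1 and Dex 2 lay within or above the Control range and Dex 3 and Dex 4 over 1 log2 unit lower. The differences of -0.66 and -0.49 therefore had intervals from -1.71 to 0.39 and from -1.74 to 0.75 (adjusted p = 0.695 and 0.809).

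Complex II, the succinate dehydrogenase that also works in the citric acid cycle, had all 4 genes below 0 by 0.23 or less. Sdha, the flavoprotein, read 14.17, 14.27, 14.35 and 14.25 in Control and 14.29, 14.22, 14.32 and 14.17 in Dex. The arrays of the groups were mixed throughout, and the difference was -0.0098 (95% interval -0.32 to 0.30, adjusted p = 0.987). Sdhc, a membrane anchor, read 11.08, 11.06, 11.14 and 11.03 in Control and 10.90, 11.09, 10.73 and 10.67 in Dex, a difference of -0.23 (adjusted p = 0.678). Dex 2 lay among the Control arrays. Sdhb, the iron-sulphur subunit, differed by -0.033 and Sdhd, the other anchor, by -0.062 (adjusted p = 0.969 and 0.917). All 4 intervals lay within a 1.5-fold change.

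Complex III, the cytochrome bc1 complex, had a median of 0.0070, with 3 genes above 0 and 3 below. Uqcrc1, a core subunit, read 9.94, 9.91, 9.62 and 9.79 in Control and 10.30, 10.44, 9.59 and 9.77 in Dex. Dex 1 and Dex 2 were the highest arrays and Dex 3 the lowest, and the difference was 0.21 (95% interval -0.31 to 0.73, adjusted p = 0.805). Cyc1, the cytochrome c1 that hands electrons to cytochrome c, read 11.92, 12.05, 12.09 and 12.09 in Control and 11.96, 11.91, 11.96 and 11.95 in Dex. Its difference was -0.10 (95% interval -0.40 to 0.20, adjusted p = 0.853), and Control 1 lay among the Dex arrays. Uqcrc2, the other core subunit, differed by 0.092 and the hinge protein Uqcrh by 0.032 (adjusted p = 0.862 and 0.969).

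Cytochrome c had the lowest adjusted p of the members. The brightest of the 3 Cycs probes read 12.61, 12.61, 12.56 and 12.51 on Control 1 to 4 and 12.15, 12.24, 11.94 and 11.91 on Dex 1 to 4. Every Dex array was below every Control array, with means of 12.57 ± 0.049 and 12.06 ± 0.16 (SD, n = 4 arrays). The difference was -0.51, a level 1.42-fold lower in Dex (95% interval -0.84 to -0.18), and it did not pass the adjusted threshold (limma, adjusted p = 0.227). This probe lies at chr4:79102851-79102910 on the minus strand of rn3, and its sequence is given because the result rests on it.
Cycs probe: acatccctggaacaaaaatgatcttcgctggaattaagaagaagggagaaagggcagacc

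The other Cycs probes lie further along the same strand, at chr4:79102449-79102508 and chr4:79102147-79102206, and share no run longer than 7 bases with it or with each other. The first read 12.20, 11.94, 11.90 and 11.91 in Control and 11.68, 11.90, 11.30 and 11.23 in Dex. The second read 11.06, 10.89, 11.01 and 10.93 in Control and 10.62, 10.94, 10.05 and 10.08 in Dex. Dex 2 lay just under the lowest Control array in the first and between Control arrays in the second. Their differences were -0.46 and -0.55 (adjusted p = 0.456 and 0.442), so all 3 probes read Cycs lower in Dex by a like amount without passing the threshold. The probes share the RNA and arrays and are not replicates of each other.

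The Cycs difference was -0.66 between Dex 3 and Control 1, the arrays that share a slide, and -0.46 among the 6 arrays of scan session 2. It passed the threshold under normexp background correction, at -0.51 (adjusted p = 0.0266), where 1.02% of all probes were called lower. It also passed with the slide as a random block, at -0.48 (adjusted p = 0.0478), where 1.76% of all probes were called lower and the fitted correlation within slides was -0.24. Cyct, the testis form of cytochrome c, was not above background on any array. Hccs, which attaches haem to cytochrome c, differed by 0.030 (adjusted p = 0.965).

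Complex IV, the cytochrome c oxidase, had 10 of 16 genes below 0 and a median of -0.070. Cox7a2, the form of subunit 7a found in most tissues, read 16.45, 16.62, 16.38 and 16.22 in Control and 16.00, 16.06, 15.71 and 15.66 in Dex. The groups did not overlap, and its level was 1.48-fold lower in Dex, a difference of -0.56 (95% interval -0.95 to -0.17, adjusted p = 0.259). Its probe lies at chr8:84832771-84832830 on the minus strand of rn3. Cox6c, an accessory subunit, read 14.19, 14.12, 14.01 and 13.97 in Control and 13.87, 13.95, 13.64 and 13.63 in Dex, a difference of -0.30 (adjusted p = 0.551). Dex 2 lay just under Control 4 there.

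Cox7b read 12.20, 12.10, 11.52 and 11.54 in Control and 11.60, 11.68, 11.21 and 11.09 in Dex, a difference of -0.44 (95% interval -0.98 to 0.10, adjusted p = 0.579). Cox5a, which carries a binding site for thyroid hormone metabolites, read 12.96, 12.78, 12.71 and 12.45 in Control and 12.47, 12.61, 12.22 and 12.02 in Dex, a difference of -0.39 (95% interval -0.83 to 0.048, adjusted p = 0.54). In both genes the highest Dex arrays overlapped the lowest Control arrays, while each Dex array lay below the Control array of its number. With the arrays paired by number, the adjusted p was 0.353 for Cox7b and 0.397 for Cox5a. Cox6b had the highest difference of all members, 0.48 (95% interval -0.0042 to 0.96, adjusted p = 0.478). It read 4.51, 4.76, 4.76 and 4.85 in Control and 4.84, 5.04, 5.24 and 5.68 in Dex, where Dex 1 lay below Control 4 but each Dex array lay above the Control array of its number, and it was matched to the current name Cox6b1 through a synonym alone.

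Several complex IV subunits have a form used in most tissues and a second form used in heart, muscle, lung or testis. Of the common forms, Cox7a2 and Cox6b are given above. The Cox6b probe, matched through a synonym alone, read only 4.51 to 4.85 in Control, so its value is given for that probe. Cox4i1 differed by -0.0010 (95% interval -0.37 to 0.37), Cox6a1 by -0.16 (-0.60 to 0.28) and Cox8a by -0.21 (-0.57 to 0.14), with adjusted p of 0.999, 0.824 and 0.708. Cox7a2l differed by 0.17 (adjusted p = 0.793), with Dex 1 and Dex 2 at 14.12 and 14.06, above all Control arrays, and Dex 3 and Dex 4 at 13.60 and 13.67 among them. Cox7a1, Cox8c, Ndufa4 and Ndufa4l2 were not analysed here.

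The restricted forms split the Dex arrays. Cox4i2, the lung form that is known to respond to low oxygen, read 10.08, 10.01, 10.65 and 10.07 in Control and 9.51, 9.14, 11.59 and 11.73 in Dex. Cox6a2, the heart and muscle form, read 7.74, 7.69, 7.57 and 7.52 in Control and 7.41, 7.30, 8.46 and 8.71 in Dex. In both, Dex 1 and Dex 2 were below all Control arrays and Dex 3 and Dex 4 above them all. Their differences were 0.29 (95% interval -1.11 to 1.69) and 0.34 (-0.43 to 1.12), with adjusted p of 0.908 and 0.783. Cox6b2, the testis form, split both groups: it read 7.65, 7.54, 5.83 and 6.17 in Control and 7.40, 7.63, 5.82 and 5.85 in Dex, a difference of -0.12 (adjusted p = 0.964).

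Cox8h, now Cox8b and also a heart and muscle form, was named by 3 probes, and they do not read the same strand. The brightest, from an expressed sequence tag, read 5.84, 6.07, 6.12 and 6.01 in Control and 5.50, 5.11, 7.26 and 7.23 in Dex, the same split as Cox4i2 and Cox6a2. It is placed on the plus strand of rn3 at chr1:201207411-201208612. The probe made from the reference mRNA is placed on the minus strand at chr1:201207352-201207411, and a stretch of 21 bases in the other tag probe, which shares 40 bases with the brightest, is the exact reverse complement of part of it. That stretch, as the tag probe holds it, is shown because it decides which strand is read.
Cox8h shared stretch: ggataagacccatcctgctgg

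The mRNA probe read 2.81, 3.87, 2.50 and 3.42 in Control, was highest on Dex 2 and lowest among the Dex arrays on Dex 3 (2.83), and was well above background on 2 arrays of each group. No difference is given for it, since it was near background. The value of the brightest probe is therefore given for that probe and not for Cox8b mRNA. Summed over 9 markers of muscle and brown fat, linear intensity was 502 to 591 on the Control arrays and 513 to 634 on the Dex arrays, and 4 of the 9 were above background on all arrays. Of these myoglobin (Mb) read 7.42, 7.13, 7.33 and 7.00 in Control and 7.21, 7.22, 8.08 and 8.15 in Dex, so it too was highest on Dex 3 and Dex 4. Of the 9 markers 4 read higher on Dex 3 and Dex 4 than on Dex 1 and Dex 2, and 1 lower, while 6 differences lay above 0 and 3 below. The part of such cells in these values was not tested.

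Complex V, the ATP synthase, had 8 of 14 genes below 0 and a median of -0.067. The catalytic beta subunit Atp5b differed by -0.18 and the alpha subunit Atp5a1 by 0.11 (adjusted p = 0.773 and 0.835). Atp5i, subunit e, which helps hold the enzyme in dimers, read 15.83, 15.82, 15.62 and 15.55 in Control and 15.37, 15.41, 15.25 and 15.20 in Dex. The groups did not overlap, and its level was 1.32-fold lower in Dex, a difference of -0.40 (95% interval -0.73 to -0.060, adjusted p = 0.377). Its probe lies at chr14:1868395-1868454 on the plus strand of rn3.

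Atp5j, a subunit of the stalk, differed by -0.27 and Atp5c1, the rotating gamma subunit, by -0.21 (adjusted p = 0.686 and 0.732). For Atp5c1 the Dex arrays read 12.78, 12.85, 12.40 and 12.37 against 12.87, 12.85, 12.87 and 12.66 in Control, with Dex 1 and Dex 2 inside the Control range. The 3 genes that encode the same c subunit of the proton channel, Atp5g1, Atp5g2 and Atp5g3, differed by 0.11, 0.12 and -0.060 (adjusted p = 0.868, 0.844 and 0.955). Atp5s read 6.39, 5.88, 4.99 and 5.66 in Control and 6.05, 6.38, 3.66 and 3.97 in Dex, and its difference of -0.71 had an interval from -2.23 to 0.81 (adjusted p = 0.769). It split the Dex arrays in the way of Ndufa7 and Ndufaf1.

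Arrays 3 and 4 lay below arrays 1 and 2 of their group in most members. In 63 of the 73 genes both Dex 3 and Dex 4 lay below both Dex 1 and Dex 2, and in 4 both lay above. Over all probes the shares were 48.3% and 31.0%. Both lay below in 57 of the 61 mitochondrial ribosomal proteins, 10 of the 11 assembly factors (Ndufaf1, a member, among them) and 15 of the 19 regulators as well. In the 12 coenzyme Q genes both lay below in 9 and above in 0. The 12 carriers with the ATPase inhibitor were less ordered, with 4 below and 3 above, and the 11 thymocyte markers had 6 below and 1 above. The Control arrays were ordered in a like way: Control 3 and Control 4 lay below Control 1 and Control 2 in 56 of the 73 genes and above in 2, against 27.5% and 22.7% of all probes. Dex 1 and Dex 2 are the arrays with the fewest probes above background. The 75th percentile of the signal before normalization was 414 and 390 intensity units on Dex 1 and Dex 2, and 261 and 259 on Dex 3 and Dex 4. On Control 1 to 4 it was 389, 400, 308 and 415, lowest on Control 3 and highest on Control 4. The median level of the 73 genes was 12.74, 12.67, 12.56 and 12.45 on Control 1 to 4 and 12.70, 12.70, 12.35 and 12.37 on Dex 1 to 4. Dex 1 and Dex 2 thus lay among the Control arrays, and Dex 3 and Dex 4 below them all. The part of array quality in this split was not tested.

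**Figure D3:**
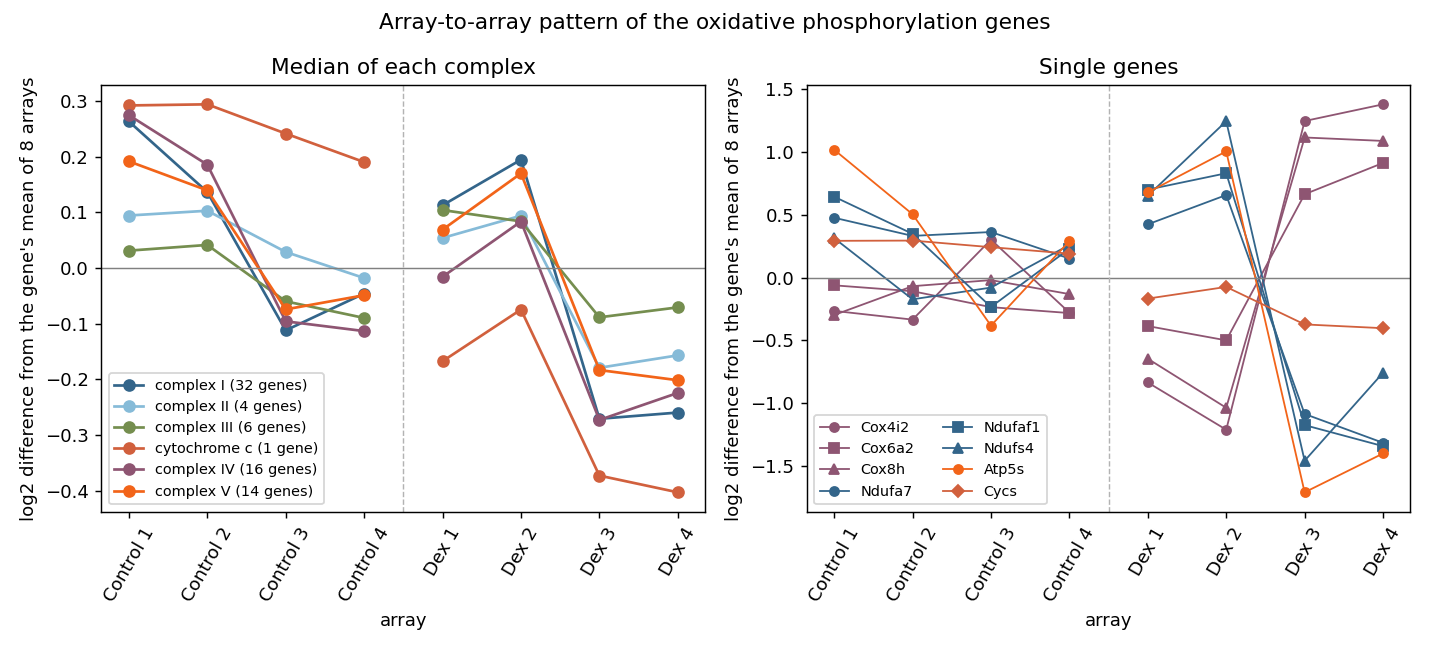
Log2 difference of each array from the gene's mean over 8 arrays, as the median of each complex (left) and for 8 genes (right). Every complex drops from Dex 1 and 2 to Dex 3 and 4, Cox4i2, Cox6a2 and the brightest Cox8h probe go the other way, and Cycs is below its mean on all Dex arrays.

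Within scan session 1, where Control 1 and Dex 3 shared a slide, the median difference of the 73 genes was -0.47, against -0.092 over all probes. Within scan session 2 it was 0.040, against 0.026 over all probes, so the sign of the members' median was not the same in both sessions. The 11 thymocyte markers had a median difference of -0.13, with 8 below 0, and of -0.45 and -0.083 in the sessions, and their part in the members' values was not tested. By complex the session 1 and session 2 medians were -0.53 and 0.019 for complex I, -0.27 and -0.041 for complex II, -0.18 and 0.090 for complex III, -0.56 and 0.048 for complex IV, and -0.42 and 0.058 for complex V. Session 2 holds its Control arrays on one slide and its Dex arrays on another, so slide and treatment cannot be told apart within it. The session 2 differences of Cycs, Cox7a2, Atp5i, Ndufb3 and Ndufb6 were -0.46, -0.50, -0.33, -0.30 and -0.28, and since their groups do not overlap, a value below 0 is fixed in any choice of arrays. The median of the whole group was thus below 0 with Control 1 and Dex 3 included and above it among the other 6 arrays.

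Leaving out Control 1, Dex 1 and Dex 2, the 3 arrays with the fewest probes above background, gave 7 members past the adjusted threshold, where 11.4% of all probes were (4671), 5.36% higher and 6.03% lower. Cox4i2, Cox6a2 and the brightest Cox8h probe were higher in Dex, by 1.42, 1.00 and 1.17. Cycs was lower, by -0.63 (adjusted p = 0.0458), and so were Ndufa7, Ndufaf1 and Atp5s, by -1.48, -1.37 and -1.69. This comparison rests on 3 Control arrays of one slide and Dex 3 and Dex 4 from the other slides, so slide and treatment cannot be told apart in it.

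**Figure D4:**
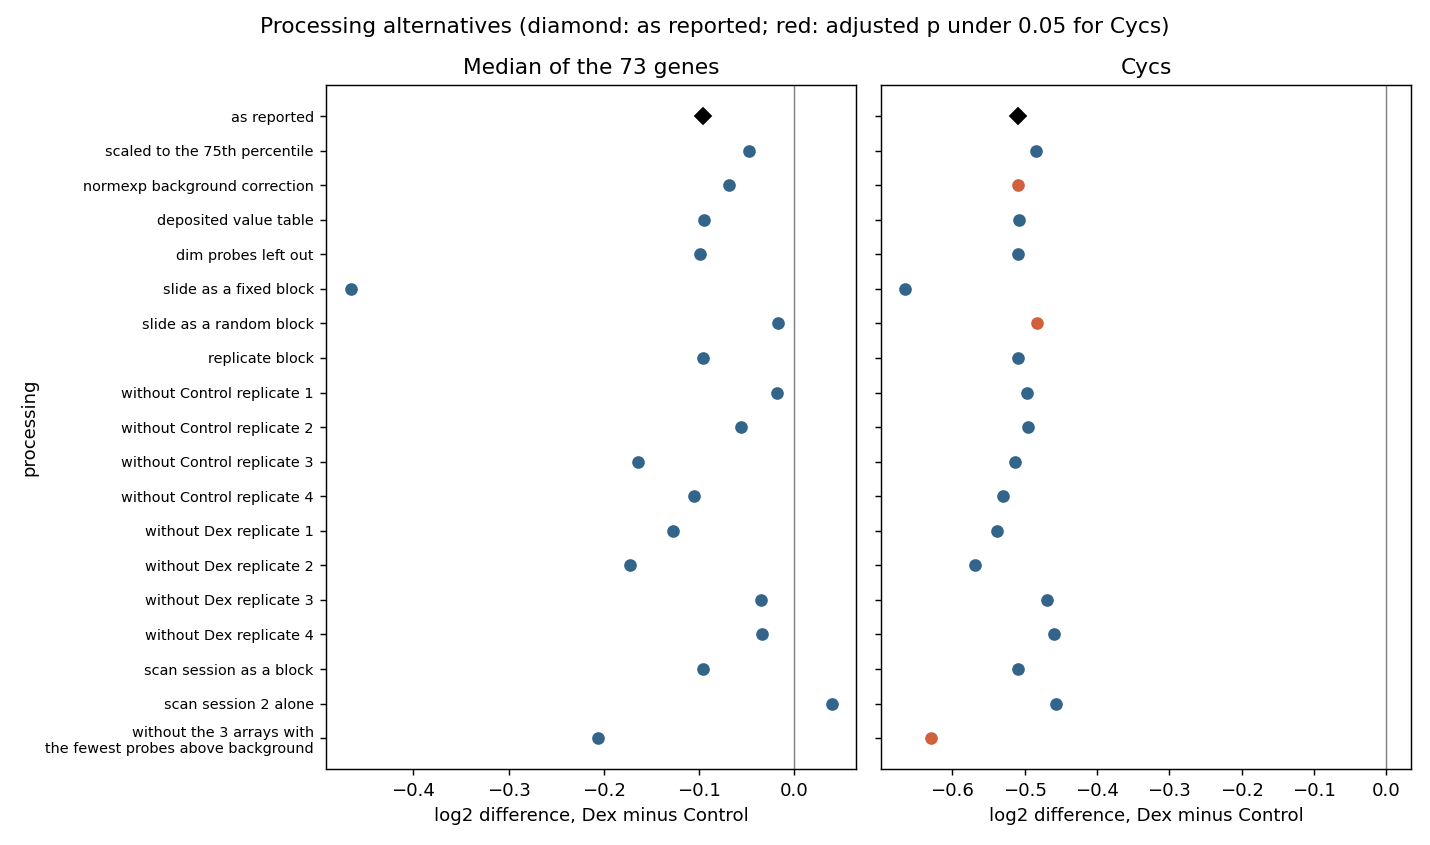
Median log2 difference of the 73 genes (left) and difference of Cycs (right), Dex minus Control, under each way of processing. The median ran from -0.47 to 0.040, while Cycs stayed between -0.66 and -0.46, past the adjusted threshold in the 3 settings drawn in red.

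For 9 genes more than 1 probe was on the array. Those of Cox8h are described above. The probes of Cycs, Ndufa2, Ndufc2, Cox5b and Atp5g2 gave the same sign, with Ndufa2 at -0.33 and -0.40 and Ndufc2 at -0.31 and -0.53. Those of Ndufa9 (-0.027 and 0.29), Ndufs8 (0.042 and -0.093) and Uqcrb (-0.018, -0.13 and 0.0062) did not, with adjusted p of 0.772 or more. None of the additional probes passed the adjusted threshold.

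The genes around the pathway showed no call either. Of 11 assembly factors, 19 regulators of mitochondrial biogenesis and mitochondrial DNA, 12 mitochondrial carriers and channels with the ATPase inhibitor, 12 genes of coenzyme Q synthesis and supply, and 61 mitochondrial ribosomal proteins, 0 reached the adjusted threshold in limma. Only 0.778% of all probes reached it. Their medians were -0.077, 0.011, 0.019, -0.040 and 0.0058. At an unadjusted p under 0.05 there were 1, 2, 3, 3 and 3 genes, of which 0, 2, 1, 1 and 3 were higher, next to 10.6% of all probes. The assembly factors include Ndufaf1, a member. The genes named in the next paragraphs were chosen from these after their values were seen.

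Cox17, which carries copper to complex IV, read 13.18, 13.06, 12.81 and 12.78 in Control and 12.60, 12.76, 12.15 and 12.08 in Dex. The groups did not overlap, and the difference was -0.56 (adjusted p = 0.383). Atpif1, the protein that stops complex V from running backwards, read 13.29, 13.08, 12.80 and 12.68 in Control and 12.51, 12.59, 12.29 and 12.15 in Dex, without overlap, a difference of -0.57 (adjusted p = 0.327). Gpd2, the mitochondrial glycerol phosphate dehydrogenase that feeds electrons to coenzyme Q, differed by -0.65 (adjusted p = 0.252). Slc25a30 differed by -0.61 and Etfa, of the electron transfer flavoprotein, by -0.38 (adjusted p = 0.318 and 0.406).

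Ucp2, an uncoupling protein of the inner membrane, read 9.33, 9.28, 9.41 and 9.51 in Control and 9.95, 9.93, 9.77 and 10.02 in Dex. Cabc1 (now Coq8a), a kinase-like protein of coenzyme Q synthesis, read 8.82, 8.71, 8.85 and 8.69 in Control and 9.21, 9.31, 9.29 and 9.47 in Dex. Neither overlapped, and they differed by 0.54 and 0.55 (adjusted p = 0.186 and 0.166). Polrmt, the RNA polymerase of mitochondrial DNA, differed by 0.43 (95% interval 0.12 to 0.74, adjusted p = 0.282), again with all Dex arrays above all Control arrays. The ribosomal protein genes Mrpl37, Mrpl38 and Mrps2 differed by 0.57, 0.54 and 0.73 (adjusted p = 0.217, 0.26 and 0.403). Of the 61 mitochondrial ribosomal proteins, however, 31 lay above 0 and 30 below, from -0.44 to 0.99.

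Of the 19 regulators 10 lay above 0 and 9 below, and 18 were above background on all arrays. Nrf1, the nuclear respiratory factor, differed by 0.038, Tfam, the packaging factor of mitochondrial DNA, by 0.033 and Gabpa by -0.21 (adjusted p = 0.959, 0.963 and 0.814). Ppargc1a, the coactivator of mitochondrial biogenesis, read 3.43, 2.03, 2.83 and 2.57 in Control and 1.00, 1.06, 2.58 and 2.70 in Dex. It was well above background on 1 array of each group, so no difference is given. Nfe2l2, a regulator of the response to oxidants, differed by 0.43 (95% interval 0.054 to 0.81, adjusted p = 0.393), and all its Dex arrays lay above all its Control arrays. The same held for Peo1, at 0.28 (adjusted p = 0.503), while Mterfd3 differed by -0.45 with all Dex arrays below (adjusted p = 0.488).

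Markers of other cells were followed by their summed level. The 10 macrophage markers summed to 4665 to 6309 linear intensity units on the Control arrays and 4468 to 8932 on the Dex arrays, and 0 passed the adjusted threshold. Of the 10, 7 lay above 0 and 3 below, with a median of 0.18 (-0.20 in scan session 1 and 0.43 in session 2), down to Cd14 at -0.77. The highest was Mrc1, the mannose receptor, read 4.00, 3.37, 4.91 and 3.59 in Control and 6.81, 6.28, 6.05 and 5.20 in Dex, a difference of 2.12 (adjusted p = 0.087), and C1qb and C1qg differed by 0.84 and 0.97 (adjusted p = 0.33 and 0.327). The 4 erythroid markers summed to 313 to 1395 in Control and 353 to 2368 in Dex, with all 4 differences above 0 and medians of -0.27 and 0.72 in the sessions. The 5 stromal markers summed to 691 to 1110 and 509 to 1430, and the 5 B cell markers to 361 to 477 and 240 to 583. None of these markers passed the adjusted threshold, and the part of such cells in the values of the 73 genes was not tested.

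Promoters of 63 of the 73 genes, 250 bases before the start and 50 after it, were available from RefSeq on build GRCr8, and letters known to bind regulators of this pathway were searched on both strands. The core of nuclear respiratory factor 1, GCGCATGCG, lay in 6 of the 63 (9.52%) and in 1.52% of all 33469 promoters of that length. The ETS core bound by GABP, CCGGAAG, lay in 19 (30.2%, against 8.75%), the YY1 core, AAGATGGCG, in 9 (14.3%, against 1.73%) and the estrogen-related receptor letters, AAGGTCA, in 9 (14.3%, against 4.61%). A full glucocorticoid response element, AGAACA and TGTTCT with 3 free bases between, lay in 0 of the 63 and in 0.0149% of all promoters. These are matches of letters and not sites shown to be bound, and no match says only that those letters are not in this window.

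Of the 8 genes without overlap that had a promoter sequence, the nuclear respiratory factor core lay in Cycs and Atp5i, the ETS core in Atp5i and Cox7a2, and the YY1 core in Ndufb8. The 250 bases before the start are shown for the 3 genes with the lowest unadjusted p, with the match in capitals: the nuclear respiratory factor core for Cycs and Atp5i (now Atp5me) and the ETS core for Cox7a2. They lie at chr4:80984768-80985017 on the minus strand, chr14:1464610-1464859 on the plus strand and chr8:89601150-89601399 on the minus strand of GRCr8. The core in Cycs begins 158 bases before the start and the ETS core in Cox7a2 43 bases before it. In Atp5i the letters match on both strands, 1 base apart.
Cycs promoter: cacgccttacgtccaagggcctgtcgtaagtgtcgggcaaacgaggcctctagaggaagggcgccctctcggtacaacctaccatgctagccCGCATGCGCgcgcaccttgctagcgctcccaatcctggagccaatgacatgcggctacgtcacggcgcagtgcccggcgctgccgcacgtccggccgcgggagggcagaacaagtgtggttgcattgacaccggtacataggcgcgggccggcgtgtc
Atp5i promoter: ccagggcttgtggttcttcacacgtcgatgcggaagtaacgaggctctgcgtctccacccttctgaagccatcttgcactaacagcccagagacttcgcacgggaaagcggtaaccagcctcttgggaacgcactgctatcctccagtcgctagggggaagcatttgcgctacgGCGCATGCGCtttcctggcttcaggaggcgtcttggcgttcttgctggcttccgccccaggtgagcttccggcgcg
Cox7a2 promoter: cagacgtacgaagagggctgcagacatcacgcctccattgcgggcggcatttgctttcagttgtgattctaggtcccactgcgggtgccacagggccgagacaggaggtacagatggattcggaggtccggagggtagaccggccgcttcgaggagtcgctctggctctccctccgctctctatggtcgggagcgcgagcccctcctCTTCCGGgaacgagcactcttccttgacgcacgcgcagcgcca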

How the data were processed

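Gene expression was measured in 8 samples on 1-color Agilent Whole Rat Genome arrays. The authors read spot intensity with Feature Extraction 9.5.3.1, which removes the local background. The deposited intensity values carry no normalization across arrays, and each spot comes with deposited 0 or 1 flags (another kind of value) for outliers, saturation and signal over background. A second deposited file gives log2 values per probe after quantile normalization and median polish by the authors. These steps were recomputed from the scanner output without control and outlier spots, and the result correlated with the deposited table at 0.999999 or more. Probe positions are those of the files, in rn3. No exon or UTR annotation of that build was used here. Array precision is limited by 4 arrays per group and, for dim probes, by the signal over background.

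In R 4.3.3, limma 3.58.1 was fitted to all 41012 probes, two-sided and without a block, with Benjamini-Hochberg adjustment at 0.05, and intervals are limma's 95% intervals. A gene stands for its brightest probe. The values of 1 member are not reported here, although it is in the counts and medians. The signal to noise statistic was compared with its values over all 70 assignments of the arrays, for the 40996 probes without a missing value. The procedures were tested on simulated data. Alternatives were scaling to the 75th percentile, normexp background correction with an offset of 50, the deposited table, leaving out dim probes, slide and replicate blocks, leaving out each array, and the mean of a gene's probes. The scan session settings and the fit without 3 arrays were added after the data were seen.

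Genes named by rule were those past the threshold, the 4 with the largest difference in each complex among genes whose brighter group was well above background throughout, and isoform families. Other members were named for their role, for having several probes or after their values were seen. The rule also allowed called genes of the other lists, of which there were 0. The members, lists and motifs were chosen with earlier results of these data known. The lists were assembly factors, regulators, carriers, coenzyme Q genes, mitochondrial ribosomal proteins, 3 genes named apart from the rule, and markers of thymocytes (double positive), of macrophages, of B cells, of stroma, of erythroid cells, and of muscle and brown fat. None of 5 stromal or 4 erythroid markers passed the adjusted threshold, and of the genes apart Usmg5 differed by -0.29.

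Control and Dex arrays carry replicate numbers 1 to 4 in the labels. Deviations from the group means correlated between arrays of the same number at 0.40, 0.13, 0.55 and 0.18. Dex 2 correlated more with Control 1 (0.40) than with Control 2, and Dex 4 more with Control 3 (0.39) than with Control 4. Arrays of the same number did not share a slide. The correlations therefore do not single out a shared number as a pair. The fit as reported has no block, and pairing by number is given only as an alternative.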

Additional observations from a re-analysis of the deposited data

Results flagged for a closer look

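In the groups of 4 arrays, 104 groups of member values were tested for an array set apart from the others, and 4 were flagged, where chance flags about 1 in 20. All 4 were Control arrays. Control 3 read Cox4i2 at 10.65 against 10.01 to 10.08 on the others, and Ndufb8 at 14.80 against 14.95 to 14.96. Control 1 read Ndufab1 at 11.49 against 11.28 to 11.31. Control 4 read Atp5c1 at 12.66 against 12.85 to 12.87.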

How the results depend on the processing

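Member calls were 0 in limma under scaling to the 75th percentile, the deposited table, without dim probes, slide as a fixed block, scan session as a block, scan session 2 alone, the mean of all probes of a gene and without each array in turn (0 to 0). They were 1 under normexp background correction, 1 with slide as a random block, 1 at a nominal p of 0.01 and a fold change of 1.2 (Cycs each time), 6 by the signal to noise statistic and 7 without the 3 arrays with the fewest probes above background. The corresponding calls among the pathway genes outside the rule were 4, 6, 4, 12 and 9 (the last with Ndufaf1, which is also a member), and 0 to 0 without each array in turn. These genes came from lists of 11 assembly factors, 19 regulators, 12 carriers, 12 coenzyme Q genes and 61 mitochondrial ribosomal proteins. Of all 41012 probes, the first settings called 915, 1838 and 1593 in the same order. The signal to noise statistic called 6.79% of probes, and the fit without the 3 arrays 11.4%. The counts alone thus do not set the pathway apart from all probes. The members' median was -0.47 with slide as a fixed block, which compares Control 1 with Dex 3 alone, 0.040 in scan session 2 alone, and -0.17 to -0.018 without each array in turn, nearest to 0 without Control 1. Scaling to the 75th percentile gave -0.047 and shifted the median of all probes by -0.038.

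Calls among all probes were 166 with scaling to the 75th percentile, 915 with normexp (497 higher and 418 lower), 562 without dim probes, 1 with slide as a fixed block, 1838 with slide as a random block, 190 with scan session as a block, 56 in scan session 2 alone, 4671 without the 3 arrays, 2784 by signal to noise, 1593 at the nominal threshold and 96 to 249 without each array in turn. With the replicate block, which pairs the arrays of 1 number, they were 81, while the median stayed at -0.096 and 0 members and 0 pathway genes were called. Across 917 refits of the 51 named members, 821 kept their sign and their side of the threshold, 87 changed sign without passing it, 9 came past it with the same sign, and 0 came past it with the other sign. The cause of these changes was not tested. The 4 arrays per group and, for dim probes, the signal over background limit what can be seen. Their part in these counts was not tested.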
